A study of Homo sapiens with 12 samples.

Results

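U373 and U87MG, a pair of established human glioblastoma cell lines, were compared while they shared one medium. The arrays compared were the 3 of U373 cells and the 3 of U87MG cells in indirect co-culture, chosen by their group labels. They are 6 of the 12 arrays of the series. The other 6 are the same lines in monoculture, 3 arrays each. In co-culture, U373 cells grew in an insert with pores of 0.4 µm and U87MG cells in the well below it. Both were left to adhere for 3 h and then shared 3 ml of DMEM with fetal bovine serum for 72 h. The monocultures had the same volume of medium and no cells of the other line. Each group is 1 cell line without added drug or genetic change, and its arrays are biological replicates. U373 cells were always in the insert and U87MG cells always in the well, so line and chamber cannot be told apart. Likewise, fewer cells of a kind and less RNA per cell cannot be told apart in bulk RNA.

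In such a culture the cells do not touch, but secreted proteins and metabolites pass the membrane. Chemokine genes are known to respond to factors in the medium, whereas lineage transcription factors and MHC class II genes are known for their restriction to certain cell types. The question of the comparison is which differences between the lines hold in a shared medium.

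Expression was measured on bead arrays (Illumina HumanWG-6 v3), 1 for each culture. A level below is the log2 of the normalized probe intensity, averaged over the probes of a gene. A log2 difference is the U373 level minus the U87MG level, so that a negative value is a lower level in U373 cells. Probes of 18665 genes were named. Tested with limma were the 10571 genes that exceeded background on 3 or more of the 12 arrays, and a gene was called where its p, adjusted by the Benjamini-Hochberg method, was under 0.05. The background limits of the co-culture arrays were 4.41 to 5.08 (log2), exceeded by 28.3% to 33.6% of their probes. The scale flattens toward background, so differences of dim genes are understated. A probe at background in both lines likewise makes the averaged difference of its gene smaller. Where a gene was above background on all 3 arrays of 1 line and on none of the other, its fold is a bound. The bound sets the mean of the higher line against, on each array of the lower line, the lowest level above the limit or the gene's own level, whichever is higher. The number of arrays limits the precision: the median standard error of a log2 difference was 0.17.

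The correlation was 0.9813 to 0.9914 between replicates of a group and 0.8993 to 0.9167 between the lines. Replicates were not equally close. The genes that lay over 1 on the log2 scale from the mean of the other replicates numbered 188, 154 and 64 in U373 co-cultures 1, 2 and 3, and 47, 22 and 48 in U87MG co-cultures 1, 2 and 3. Some genes of the other line were above background in the co-cultures. Of 451 genes that were above background on all 3 U373 monoculture arrays and on none of U87MG, 56 were above background in U87MG co-culture replicate 1, 90 in replicate 2 and none in replicate 3. Of the 60 that were brightest in U373 monoculture the order was different, with 13, 6 and 0, and their median levels were 3.98, 3.61 and 3.49. In the other direction, of 552 genes that were above background on all 3 U87MG monoculture arrays and on none of U373, 58, 37 and 57 were above background in U373 co-culture replicates 1, 2 and 3, and of the 60 brightest 3, 2 and 2. These genes were chosen by their monoculture levels, so the counts are a description. They also depend on the background limit of each array. The limits were 4.58, 4.41 and 4.99 on U87MG co-culture replicates 1, 2 and 3. On U373 co-culture replicates 1, 2 and 3 they were 4.90, 5.08 and 4.95. Within each line, an array with a higher limit had a lower count of all such genes. In U373 co-culture replicate 2, some stress and cytokine genes stood above the other replicates. HMOX1, the heme oxygenase, was at 10.17 there and at 7.41 and 7.76 in replicates 1 and 3. Results that rest on U87MG co-culture replicate 1 or on U373 co-culture replicate 1 or 2 are given with and without that array. The cause of these patterns was not tested.

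Most measured genes differed between the lines in the shared medium, and nearly all large differences were also present when the lines grew apart. In co-culture 6075 of 10571 genes passed the test, which is 57.5% of the genes tested. Of these, 2703 (25.6%) were higher and 3372 (31.9%) lower in U373 cells. The levels of the 2 lines did not overlap for 6624 genes (62.7%). In monoculture 6269 genes (59.3%) passed, 2954 (27.9%) higher and 3315 (31.4%) lower. Without U87MG co-culture replicate 1 there were 5410 calls in co-culture, and without U373 co-culture replicate 1 or 2 there were 5687 and 5581.

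Of the 6075 genes called in co-culture, 5259 passed in monoculture in the same direction, which is 86.6% of the co-culture calls, 83.9% of the monoculture calls and 49.7% of the genes tested. They comprised 2416 genes higher and 2843 lower in U373 cells. Of 2683 genes called in co-culture with a log2 difference of at least 1 in size, 2643 held in monoculture (98.5%). Of 987 with at least 2, all but 1 held, and of 243 with at least 4, all held. The exception was TRIB3, a pseudokinase induced by the integrated stress response, which was named after its values were seen. Its log2 difference was 2.65 in co-culture and 1.32 in monoculture (adjusted p = 0.062). It was at 8.35, 11.64 and 8.94 in the U373 co-cultures, so the array that was high in HMOX1 was also the highest here. Without that array its difference was 1.65, and all 984 differences of at least 2 held. Without U373 co-culture replicate 1, 980 of 982 held, the exceptions being the stress genes CHAC1 (2.89 in co-culture and 0.31 in monoculture) and GDF15 (2.20 and -0.74).

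The median size of the log2 difference was 1.00 for the genes called in both cultures and 0.54 for the 813 genes called in co-culture alone. Of these 813, 745 had the same sign in monoculture, and 127 differed between the cultures at an unadjusted p under 0.05. Likewise, of 1007 genes called in monoculture alone, 928 had the same sign in co-culture and 151 differed at an unadjusted p under 0.05. Most genes called in a single culture thus had the same sign in the other. Across genes, which are not independent replicates, the differences in co-culture and in monoculture correlated at r = 0.973. The slope of the co-culture on the monoculture difference was 0.945, and 53.4% of the genes had the smaller difference in co-culture. The 2 comparisons share no array. With each fitted on its own 6 arrays, 5081 genes passed in both, 86.6% of the co-culture and 82.4% of the monoculture calls.

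**Figure D1:**
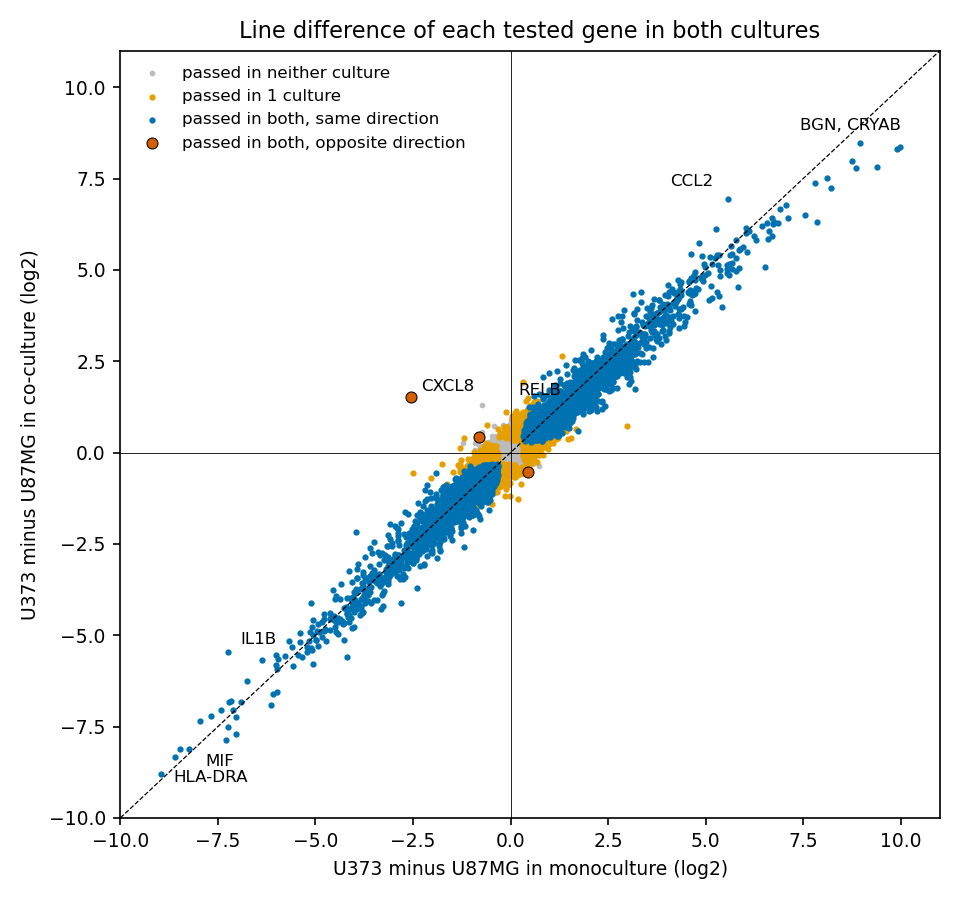
Log2 difference of each tested gene between U373 and U87MG, in monoculture on the x axis and in co-culture on the y axis, 1 point per gene, with the dashed line marking equal differences. The 5259 genes that passed in both cultures in the same direction lie along this line, and CXCL8 lies on the other side of 0 in co-culture.

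Some genes were above background in 1 line only. In co-culture 401 genes (3.79% of those tested) exceeded the limit on every U373 array and on no U87MG array. This also held in monoculture for 324 of them. The reverse held for 538 genes (5.09%), of which 416 were limited to U87MG cells in monoculture as well. These counts follow from the background limit and not from a test. The limits were 4.41 to 4.99 on the U87MG and 4.90 to 5.08 on the U373 co-culture arrays. Of the 401 genes 398 passed the test of the line difference in co-culture, and of the 538 genes 511.

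The 15 largest differences toward U373 cells were in genes of several kinds, among them matrix and secreted proteins, a chaperone, cytoskeletal proteins and transcription factors. IGFBP5, which binds insulin-like growth factors outside the cell, was at 12.81, 12.87 and 12.47 in U373 co-cultures 1, 2 and 3 and at 5.98, 3.61 and 3.16 in the U87MG co-cultures. The log2 difference was 8.46 (standard error 0.49, adjusted p = 8.9e-10). All 3 U373 arrays lay far above the U87MG arrays, of which replicate 1 alone was above background. CRYAB, a small heat shock protein and chaperone, was at 13.52, 13.58 and 13.48 against 7.02, 4.59 and 3.87, with a log2 difference of 8.36 (standard error 0.52). BGN, the matrix proteoglycan biglycan, was at 14.34, 14.66 and 14.30 against 9.07, 4.83 and 4.48, with one of 8.31 (standard error 0.78). In each case the highest U87MG array was replicate 1. Without it the log2 differences were 9.33 for IGFBP5, 9.29 for CRYAB and 9.78 for BGN.

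The same array was the highest of U87MG for THY1, a glycoprotein of fibroblasts and neurons (log2 difference 7.98, or 8.48 without it), for the smooth muscle actin ACTG2 (7.82, or 8.52) and for the matrix Gla protein MGP (7.78, or 8.52). It was also the highest for the tubulin TUBB2B (7.25, or 7.61). COL4A1, a basement membrane collagen, was at 11.54, 11.94 and 11.28 in U373 cells and at background in U87MG cells, at least 121-fold higher. GPC4, a cell surface proteoglycan, was at least 47.3-fold higher. Of the transcription factors, SOX21 was at least 50.4-fold and HES4, a repressor of the Notch pathway, at least 44.1-fold higher in U373 cells. These genes all passed in monoculture in the same direction.

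**Figure D2:**
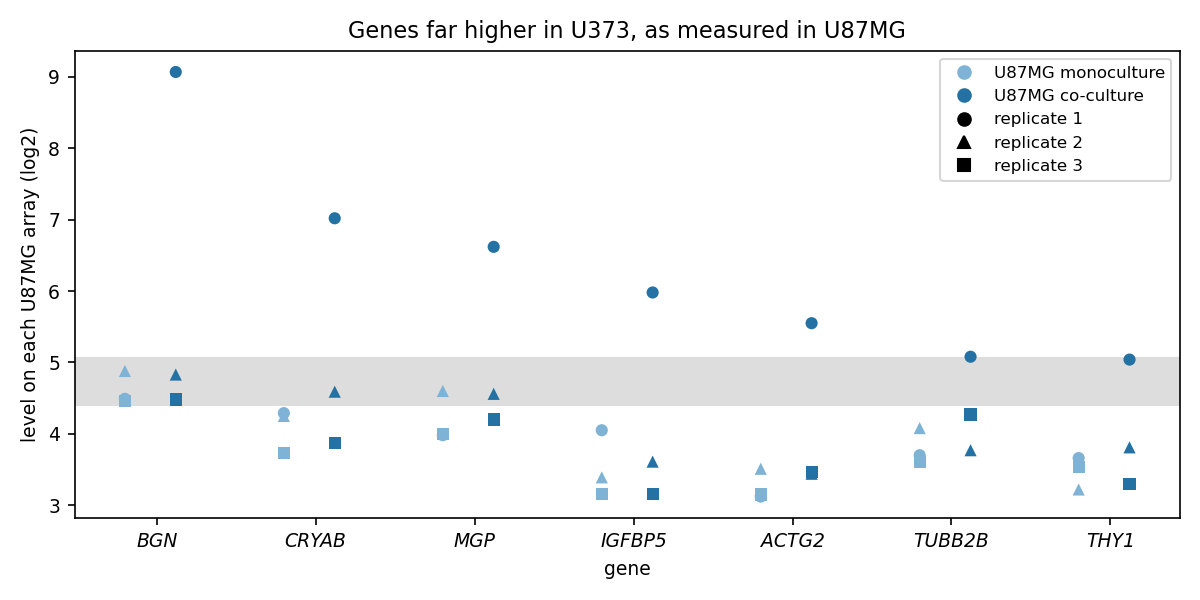
Log2 level of 7 genes that were far higher in U373 cells, as measured on the 6 U87MG arrays, 1 point per array, with the range of the arrays' background limits in grey. In each of these genes U87MG co-culture replicate 1 is the highest of the 6 arrays, with BGN at 9.07 and CRYAB at 7.02. The 7 genes were picked from the largest differences toward U373 cells. In others that were higher in U373 cells, such as FABP7 and IL7R, replicate 1 was not the highest U87MG co-culture.

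Of the 141 genes that were higher in U373 monoculture by a log2 difference of at least 4, 108 had a smaller difference in co-culture, with a median change of -0.31. Without U87MG co-culture replicate 1 it was 96 of 141 and -0.23. Of the 105 genes that were lower by as much, 51 had a smaller difference in co-culture and the median change was -0.0029. These genes were chosen by their monoculture difference, so the counts are a description with no test. The part of RNA from U373 cells in the levels of U87MG co-culture replicate 1 was not tested.

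The 15 largest differences toward U87MG cells included 5 genes of MHC class II presentation, beside genes of other kinds. HLA-DRA was at 3.86, 3.53 and 3.73 in the U373 co-cultures and at 12.45, 12.56 and 12.51 in the U87MG co-cultures. The level in U373 cells was lower by at least 184.5-fold (log2 difference -8.80, standard error 0.16, adjusted p = 1.25e-14). MIF, a cytokine that binds the invariant chain CD74, was at 5.40, 4.42 and 4.17 in U373 cells, above background on 1 array, and at 12.88, 12.83 and 12.66 in U87MG cells, a log2 difference of -8.13 by its 1 probe. The groups lay far apart in both genes, and the differences were -8.96 and -8.24 in monoculture.

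TFPI2, an inhibitor of plasmin and tissue factor, was lower in U373 cells by at least 84.6-fold, and the transcription factor FOXD1 at least 44.3-fold. Others at background in U373 cells were MLPH, which links melanosomes to myosin (at least 82.6-fold lower), KYNU, an enzyme of tryptophan breakdown (75.1-fold), and VAMP5, a vesicle protein (68.1-fold). NETO2, an auxiliary subunit of glutamate receptors, and CYBA, a subunit of the NADPH oxidase of phagocytes, were at least 48.3-fold and 38.3-fold lower. RAC2, a GTPase that activates this oxidase, was above background on 2 of the 3 U373 arrays, with a log2 difference of -6.84. The differences of these genes in monoculture lay between -7.04 and -7.95.

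**Figure D3:**
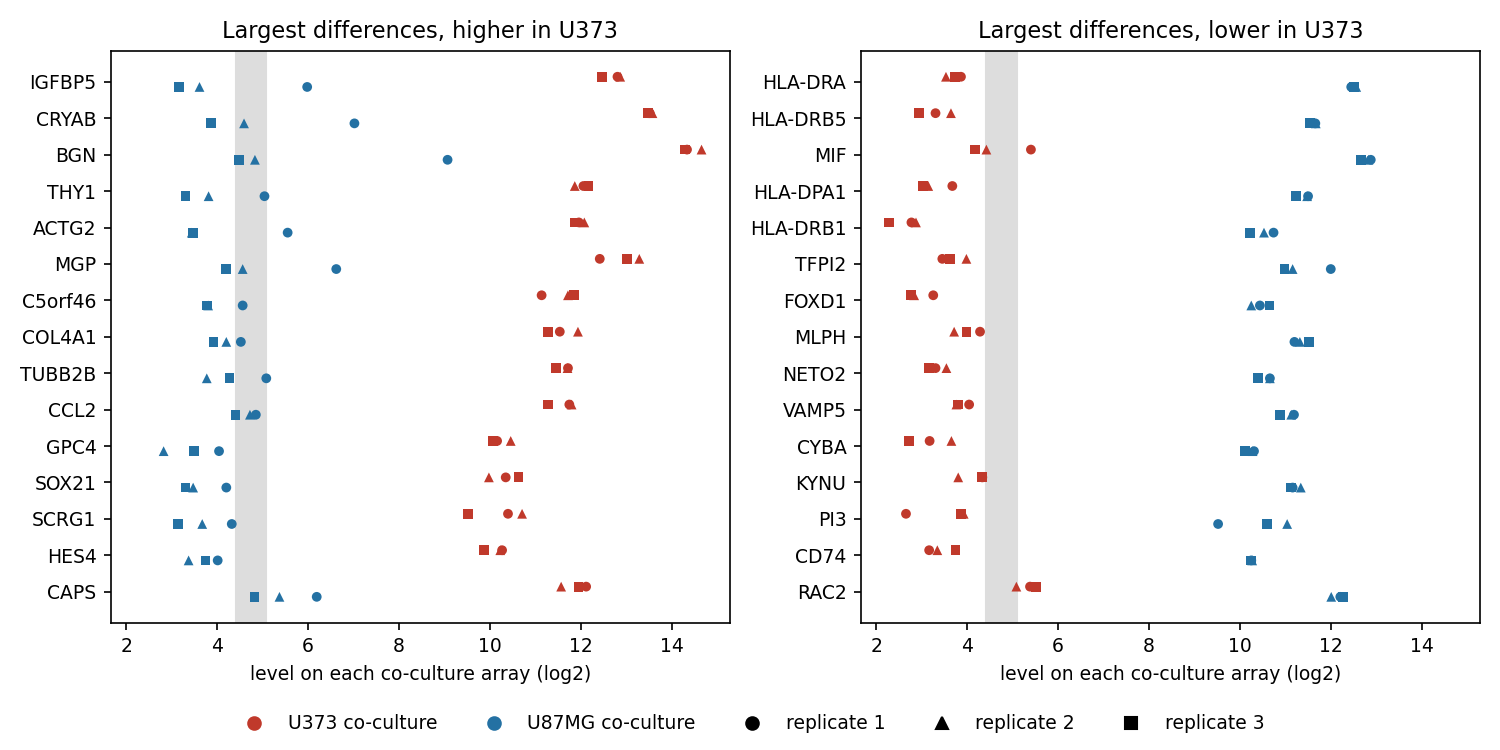
Log2 level on each of the 6 co-culture arrays of the 15 genes with the largest difference toward U373 (left) and of the 15 with the largest difference toward U87MG (right), 1 point per array, with the range of the background limits in grey. U373 and U87MG arrays are separate in all 30 genes, and U87MG replicate 1 stands apart in BGN, CRYAB, MGP, IGFBP5 and ACTG2.

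MHC class II molecules present peptides from endocytosed proteins to helper T cells. They are made mainly by professional antigen-presenting cells, and by other cells when interferon gamma induces the coactivator CIITA. Of 16 tested genes of class II presentation, 14 were lower in U373 cells in the shared medium and none was higher. Of the list 87.5% was called, beside 57.5% over all genes. The median log2 difference was -4.65, beside -0.07 over all genes tested. All 14 also passed in monoculture. HLA-DRB5 was at 3.30, 3.64 and 2.93 in U373 cells and at 11.66, 11.67 and 11.55 in U87MG cells, at least 100.2-fold lower. HLA-DPA1 was at least 85.8-fold and HLA-DRB1 at least 45.8-fold lower. The HLA-DRB genes are so alike in sequence that a probe for one may bind RNA of another, and their values are uncertain in this respect.

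CD74, the invariant chain that fills the peptide groove until an antigen is loaded, was at 3.16, 3.34 and 3.74 in U373 cells and at 10.25, 10.27 and 10.25 in U87MG cells. It was at least 38.8-fold lower, and its 3 probes gave log2 differences of -8.58, -8.07 and -3.88. HLA-DMB, part of the molecule that exchanges the invariant chain peptide, was at 3.51, 2.81 and 3.43 against 10.28, 10.22 and 9.66, at least 33.7-fold lower. HLA-DMA, its partner, was above background in both lines, with a difference of -5.58. CIITA itself was at 3.13, 2.70 and 2.89 in U373 cells, all at background, and at 5.55, 5.82 and 5.09 in U87MG cells (log2 difference -2.58, adjusted p = 1.97e-06). RFX5, a subunit of the factor that binds the X box of class II promoters, differed by -0.53, while its partners RFXAP (-0.12) and RFXANK (0.07) did not pass. Without U87MG co-culture replicate 1, or without U373 co-culture replicate 1 or 2, 14 of these genes were also lower and none higher.

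Class II promoters carry a Y box with the bases CCAAT, which binds the factor NF-Y. Runs of CCAAT on either strand are in capitals here, whether or not they are that box. Shown are the 150 bases before the RefSeq start of 2 genes that were lower in U373 cells. The sequences are from build GRCh38.p14, at chr5:150412911-150413060 on the minus strand for CD74 and chr6:32941029-32941178 on the minus strand for HLA-DMB.
CD74: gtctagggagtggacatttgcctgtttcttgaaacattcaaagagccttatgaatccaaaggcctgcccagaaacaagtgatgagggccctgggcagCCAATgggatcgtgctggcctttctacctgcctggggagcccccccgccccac
HLA-DMB: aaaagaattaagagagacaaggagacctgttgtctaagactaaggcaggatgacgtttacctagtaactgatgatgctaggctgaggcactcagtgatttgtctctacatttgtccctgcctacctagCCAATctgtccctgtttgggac
The motif begins 53 bases before the start in CD74 and 22 bases before it in HLA-DMB. Of the 16 tested class II genes, 11 matched the promoter table, and 8 of them held CCAAT in this window. Of all 27305 promoters of the table, 24.4% held it. A match is a run of letters and was not tested as a Y box or as a binding site.

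MHC class I genes, which present peptides from the cytosol in most cells, were more often higher than lower in U373 cells. Of 19 tested, 10 were higher and 4 lower, 73.7% called beside 57.5% over all genes. The median log2 difference was 0.46. Of the 14 calls, 10 also passed in monoculture in the same direction. Without U87MG co-culture replicate 1, 9 were higher and 3 lower. HLA-F was at 9.74, 10.01 and 9.50 in U373 cells and at 7.98, 8.16 and 7.90 in U87MG cells (log2 difference 1.73). TAP1, a peptide transporter of the endoplasmic reticulum, differed by 1.40. PSME2, a proteasome activator subunit, and NLRC5, the coactivator of class I genes, were lower by log2 differences of -1.03 and -0.78.

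Interferon-stimulated genes were split. Of 34 tested, 19 were higher and 8 lower in U373 cells, 79.4% called beside 57.5% over all genes. Of these calls, 24 passed in monoculture in the same direction too. The membrane proteins IFITM1, IFITM2 and IFITM3, which restrict viral entry, had log2 differences of 4.03, 2.92 and 2.90. IFITM1 was at 9.25, 9.12 and 8.69 against 5.17, 4.78 and 5.02. OASL, which enhances RNA sensing, was at background in U373 cells (at least 4.96-fold lower), and IFI44L and TRIM22 differed by -2.62 and -1.86. Both kinds of gene thus belonged to the same family of responses, and no single direction held for it.

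Chemokines and cytokines pass between the chambers as proteins, while these arrays measured the RNA of each line. Of 20 tested, 11 were higher and 5 lower in U373 cells in co-culture, 80% called beside 57.5% over all genes. In monoculture 10 were higher and 8 lower. CCL2, which attracts monocytes, was at 11.75, 11.80 and 11.28 in U373 co-cultures and at 4.85, 4.72 and 4.40 in U87MG co-cultures, where it was above background on 2 arrays. The log2 difference was 6.95 (standard error 0.18). In monoculture it was 5.58, and the difference between the cultures had an unadjusted p = 6.56e-05 (adjusted p = 0.213). With the replicate number as a block it passed (adjusted p = 0.0249). CX3CL1 and CXCL16, the chemokines made as membrane proteins, were not above background in U87MG cells, and U373 cells had at least 8.88-fold and 8.23-fold higher levels. TNFSF10, the death ligand TRAIL, was at 7.48, 6.98 and 7.30 against 3.21, 3.49 and 2.94 in U87MG cells, at least 6.02-fold higher.

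IL1B, a cytokine that activates the NF-kB pathway, was lower in U373 cells in both cultures. It was at 6.55, 8.22 and 7.58 in the U373 co-cultures and at 12.56, 13.12 and 13.07 in the U87MG co-cultures, a log2 difference of -5.47 (standard error 0.35). In monoculture the difference was -7.25. CSF3, the granulocyte growth factor G-CSF, was at background in U373 cells (at least 5.06-fold lower). IL1A, the other interleukin 1, was at 4.58, 7.72 and 5.36 against 7.88, 8.71 and 8.40, with a difference of -2.44 that was -3.36 without U373 co-culture replicate 2.

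CXCL8 was the one gene whose line difference was itself called different between the cultures, 1 of 10571 (0.00946%). CXCL8, or interleukin 8, attracts neutrophils and is a target of NF-kB. In co-culture it was at 12.22, 13.77 and 11.97 in U373 cells and at 10.49, 11.81 and 11.10 in U87MG cells, and was higher in U373 cells by a log2 difference of 1.52 (standard error 0.40, adjusted p = 0.00462). In monoculture it was at 7.66, 7.17 and 8.10 in U373 cells and at 10.13, 10.45 and 10.01 in U87MG cells, a log2 difference of -2.55. The order of the lines was thus reversed, with no overlap of the arrays in either culture. The difference between the cultures was 4.07 (adjusted p = 0.0365). Without U373 co-culture replicate 2 the co-culture difference was 0.96 (adjusted p = 0.0206) and that between the cultures 3.51 (adjusted p = 0.00943). Without U87MG co-culture replicate 1 the latter was 3.75 and did not pass (adjusted p = 0.132).

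The call that the CXCL8 difference changed also did not pass, at values of 3.83 to 4.16, without U87MG co-culture replicate 3 (adjusted p = 0.124), without U373 monoculture replicate 1 (0.158) or 2 (0.16), or without U87MG monoculture replicate 1 (0.214), 2 (0.27) or 3 (0.113). The direction was the same in every case. It also did not pass with a trended and robust variance (0.2) or without the filter on dim genes (0.0744). The median standard error of such a difference of differences was 0.24. Changes well under 1 on the log2 scale were thus not detectable in a test across all genes, and changes over 1 could be missed. Without U87MG co-culture replicate 1, those of CCL2 (1.47, adjusted p = 0.266) and COL13A1 (1.30, adjusted p = 0.548) did not pass in the limma test.

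A further pair of genes passed in both cultures in opposite directions and was named after its values were seen. FLVCR1, a heme exporter, had a log2 difference of 0.41 in co-culture, where the arrays of the lines overlapped, and -0.82 in monoculture. LMO7, a protein of cell junctions, had -0.52 and 0.45, and was at background on all 3 U373 co-culture arrays. The differences between the cultures had adjusted p = 0.213 and 0.5. Neither co-culture call was stable: FLVCR1 did not pass without U373 replicate 2 or 3 or U87MG replicate 1 or 2 (0.28 to 0.41), nor LMO7 without U373 replicate 2 or 3 or U87MG replicate 2 (-0.49 to -0.42). At an unadjusted p under 0.05, 666 genes (6.3%) differed between the cultures, and 1002 without U373 co-culture replicate 1. Without that array MSC, a transcription factor, was called beside CXCL8 (-1.46, adjusted p = 0.0346).

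Of 22 tested NF-kB subunits, regulators and targets, 6 were higher and 4 lower in U373 cells in co-culture, against 1 higher and 8 lower in monoculture, and 7 differed between the cultures at an unadjusted p under 0.05. Of the list 45.5% was called in co-culture, beside 57.5% over all genes. Without U373 co-culture replicate 1, 4 were higher and 4 lower in co-culture, and without replicate 2, 7 and 3. Without U87MG co-culture replicate 1 these counts were 5 and 4. RELB, a subunit of the alternative pathway, was at 7.23, 7.67 and 6.96 in U373 co-cultures and at 6.20, 6.47 and 5.84 in U87MG co-cultures, a log2 difference of 1.12 (adjusted p = 0.000258), whereas in monoculture it was -0.13 (adjusted p = 0.618). NFKBIE, an inhibitor of NF-kB, differed by 0.96 in co-culture and by 0.28 in monoculture, where it did not pass. The difference between the cultures was called for neither RELB nor NFKBIE. MAP3K14, the kinase of the alternative pathway, was higher in U373 cells in both cultures, at 1.81 and 1.72.

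TNFAIP3, a deubiquitinase that limits NF-kB, was at 6.57, 7.74 and 7.31 in U373 co-cultures and at 6.45, 7.78 and 7.05 in U87MG co-cultures, so that the arrays overlapped (log2 difference 0.11, adjusted p = 0.779). In monoculture it passed with -1.30. CXCL2, a chemokine related to CXCL8, likewise overlapped in co-culture, at 6.32, 7.70 and 6.02 against 6.62, 7.51 and 7.63 (-0.57, adjusted p = 0.195), and passed in monoculture with -2.50. For neither TNFAIP3 nor CXCL2 was the difference between the cultures called. Without U373 co-culture replicate 2, the highest U373 array, CXCL2 also passed in co-culture (-1.08, adjusted p = 0.00546). The TNFAIP3 difference then had the other sign (-0.15, adjusted p = 0.71), as it did without U87MG co-culture replicate 1 (-0.21, adjusted p = 0.597). NFKBIA and SOD2, both NF-kB targets, were lower in U373 cells in both cultures, by -0.90 and -0.89 in co-culture.

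**Figure D4:**
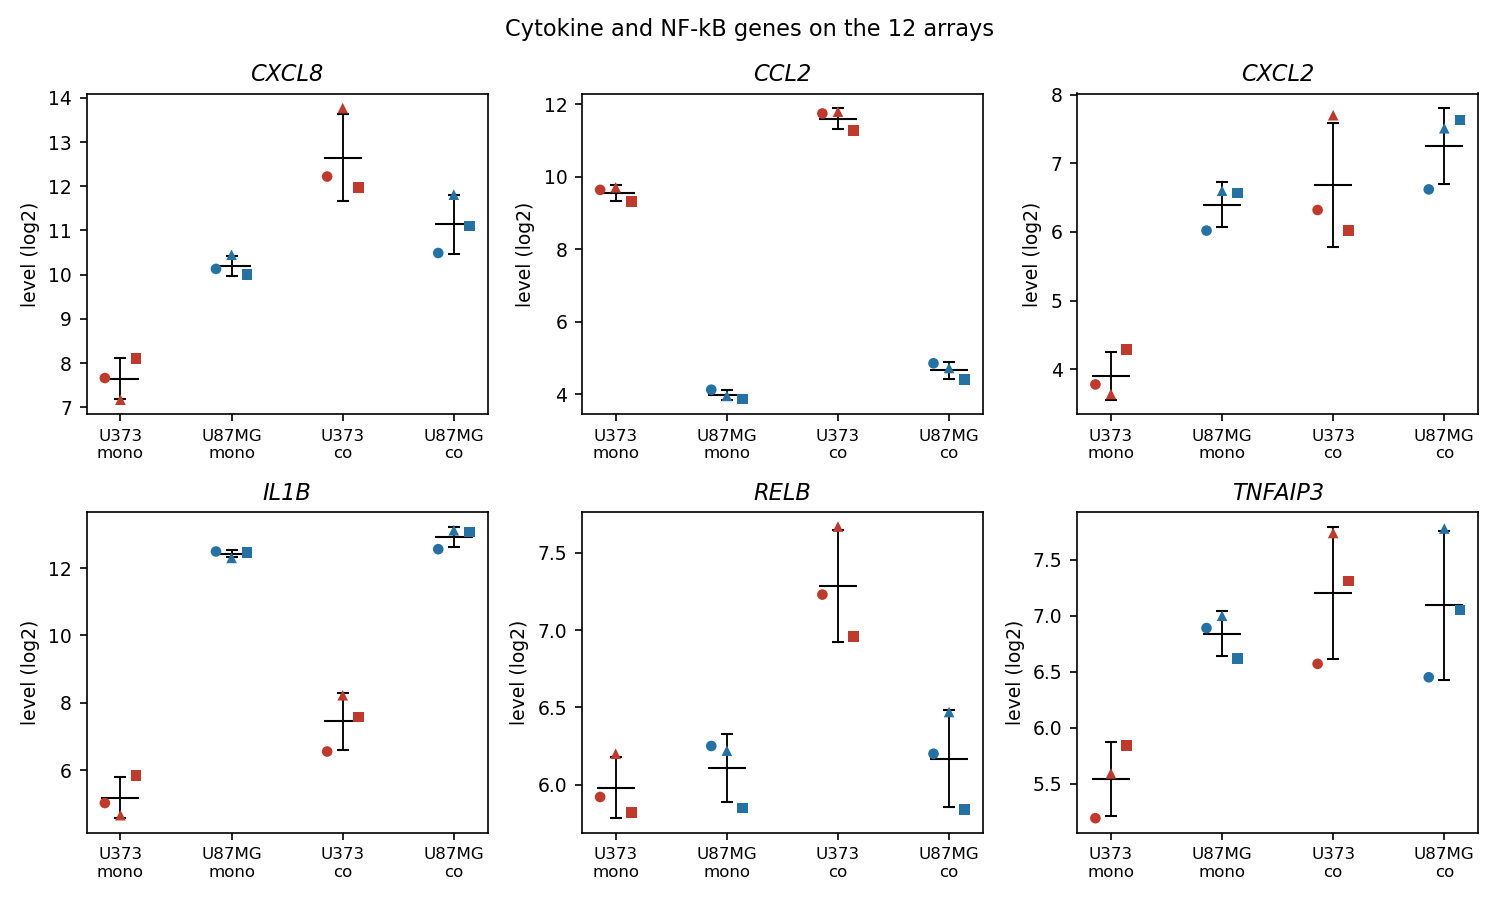
Log2 level of 6 cytokine and NF-kB genes on the 12 arrays, by line and culture, 1 point per array with circles, triangles and squares for replicates 1, 2 and 3 and bars for the mean and SD. CXCL8 is the highest in the U373 co-cultures and the lowest in the U373 monocultures, and the lines overlap in co-culture for CXCL2 and TNFAIP3.

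The promoters of CXCL8 and CXCL2 are shown because the order of the lines changed in the one gene and the lines overlapped in co-culture in the other. In capitals is the run GGAANTTCC, a form of the NF-kB motif that reads alike on both strands. The windows are the 150 bases before the RefSeq start in build GRCh38.p14, at chr4:73740419-73740568 on the plus strand for CXCL8 and chr4:74099196-74099345 on the minus strand for CXCL2.
CXCL8: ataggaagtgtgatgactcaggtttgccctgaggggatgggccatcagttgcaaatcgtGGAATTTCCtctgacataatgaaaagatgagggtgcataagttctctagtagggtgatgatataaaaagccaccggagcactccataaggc
CXCL2: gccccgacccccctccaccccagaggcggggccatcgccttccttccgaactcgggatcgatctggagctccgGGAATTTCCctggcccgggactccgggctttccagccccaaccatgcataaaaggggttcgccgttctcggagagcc
The run begins 91 bases before the start in CXCL8 and 77 bases before it in CXCL2. Of the 20 tested chemokines and cytokines, 12 matched the promoter table, and these 2 held it. Of all 27305 promoters, 0.527% did. No binding was measured.

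Receptors and ligands were set side by side, since each line was exposed to the medium of the other. Of 43 tested growth factor receptors, 25 were higher and 8 lower in U373 cells, 76.7% called beside 57.5% over all genes. Without U87MG co-culture replicate 1 or without U373 co-culture replicate 1, 5 were lower. The median log2 difference was 0.85. LRP5, a coreceptor of Wnt proteins, was at background in U87MG cells (at least 6.08-fold higher in U373 cells). NOTCH3, a Notch receptor, was at 9.72, 9.70 and 9.52 against 5.87, 6.14 and 5.68, a difference of 3.75. EPHA2, an ephrin receptor, differed by 3.74, and by 2.76 in monoculture. TEK, the angiopoietin receptor of endothelium, was at 3.58, 3.89 and 3.72 in U373 cells and at 6.95, 7.33 and 7.28 in U87MG cells, at least 4.62-fold lower.

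Of 49 tested growth factors, 21 were higher and 15 lower in U373 cells, 73.5% called beside 57.5% over all genes. JAG1, a ligand of Notch receptors, was at 10.02, 10.79 and 10.34 in U373 cells and at 4.98, 4.98 and 4.92 in U87MG cells, above background there on 2 arrays, with a log2 difference of 5.42. The matricellular factors CCN2 and CCN1, both targets of YAP, were higher by 4.76 and 4.59, and CCN3, another member of this family, was at least 16.5-fold lower. CCN2 was at 8.42, 7.93 and 9.70 in the U87MG co-cultures and CCN1 at 7.78, 7.61 and 9.56, with replicate 3 the highest in both. GREM1, an antagonist of bone morphogenetic proteins, was lower in U373 cells by at least 11.1-fold, with probes that gave -6.88 and -2.38, and EREG, a ligand of the EGF receptor, at least 6.15-fold lower.

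Some ligand and receptor pairs were higher in the same line. CXCL12 and ACKR3, a receptor of it, were at background in U87MG cells. They were at least 3.21-fold and 5.64-fold higher in U373 cells. PDGFD was at least 2.43-fold higher in U373 cells and its receptor PDGFRB was higher by a log2 difference of 3.25, and MIF and CD74 were lower by -8.13 and -6.84. Other pairs were split between the lines. TGFB2 was higher in U373 cells by 2.30, while TGFBR3, which presents this ligand, was at least 7.12-fold lower. CSF1 was higher by 1.52 and its receptor CSF1R lower by -0.65, which did not pass without U373 co-culture replicate 1 (-0.47, adjusted p = 0.107) or 2 (-0.60, 0.0655) or without U87MG co-culture replicate 3 (-0.60, 0.0688). WNT5A was lower by -1.31 and its receptor ROR1 at least 1.75-fold higher. In further pairs 1 or both partners did not pass. The receptors NOTCH2 of JAG1 (-0.09, adjusted p = 0.621) and TNFRSF10B of TNFSF10 (-0.26, adjusted p = 0.367) were among these. Other Notch receptors were higher in U373 cells, NOTCH1 by 1.75 (adjusted p = 1.85e-05) and NOTCH3 by 3.75 (adjusted p = 4.52e-11). In others a receptor was at background and not tested, such as IL1R1 for IL1B and CXCR4 for CXCL12. All pairs come from a list of known partners, and signaling between the lines was not measured.

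Among cytokine receptors, 11 of 29 tested were higher and 7 lower in U373 cells, 62.1% called beside 57.5% over all genes. IL7R, the receptor of interleukin 7, was at 9.16, 9.72 and 9.79 in U373 cells and at 4.38, 4.41 and 3.91 in U87MG cells, a log2 difference of 5.33. IL13RA2, a decoy receptor of interleukin 13, differed by 3.57. TNFRSF1B, a TNF receptor, was lower in U373 cells by at least 2.14-fold. CCR1, a receptor of CC chemokines, was at 4.63, 4.32 and 4.26 against 5.71, 6.68 and 6.67, at least 2.59-fold lower.

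Collagens are the fibres and sheets of the extracellular matrix. All 25 tested collagen genes passed in co-culture, 20 higher and 5 lower in U373 cells, beside 25.6% and 31.9% over all genes, with a median log2 difference of 1.75. Of these, 23 also passed in monoculture in the same direction. Without U87MG co-culture replicate 1, 19 were higher and 5 lower in co-culture, and without U373 co-culture replicate 2, 18 and 5. The fibrillar chain COL3A1 was at 9.54, 10.25 and 8.90 in U373 cells and at background in U87MG cells, at least 29.9-fold higher. COL1A1 and COL1A2, the chains of collagen I, were higher by 3.51 and 2.51, COL5A2 by 4.57 and COL4A2, the partner of COL4A1, by 4.12. COL14A1, a fibril-associated chain, was at least 21.9-fold higher.

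The 5 lower collagens were COL16A1 (-4.07), COL6A3 (-1.28), COL15A1 (-1.11), COL13A1 (-0.88) and COL7A1 (-0.77). COL16A1, also a fibril-associated chain, was at 8.76, 8.91 and 8.66 in U87MG cells and above background on 1 of the 3 U373 arrays. COL13A1, a transmembrane collagen, was at 7.58, 7.65 and 7.51 in U373 cells and at 8.53, 8.64 and 8.23 in U87MG cells. In monoculture its difference was -2.15, and the cultures differed at an unadjusted p = 0.00013 (adjusted p = 0.274).

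Of 24 tested integrins, laminins and nidogens, 13 were higher and 7 lower in U373 cells, 83.3% called beside 57.5% over all genes. All 20 also passed in monoculture. LAMA4, a laminin chain of vessels, differed by 4.69, and NID1, which links laminin to collagen IV, was at least 4.93-fold higher. ITGA2, a collagen receptor chain, was at 6.12, 5.97 and 6.78 in U373 cells and at 9.49, 9.55 and 9.0 in U87MG cells, a difference of -3.06. ITGA10, another such chain, was at least 4.82-fold lower. Of 44 other matrix and crosslinking genes, 22 were higher and 11 lower, 75% called. FBN2, a fibrillin, differed by -3.72 and LOX, which crosslinks collagen, by -1.50.

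Proteases and their inhibitors differed in both directions. Of 12 tested matrix metalloproteinases and TIMPs, 5 were higher and 5 lower in U373 cells, 83.3% called beside 57.5% over all genes. All of these passed in monoculture as well. MMP2, a gelatinase, was at 6.31, 6.57 and 6.61 in U373 cells and at 9.42, 9.48 and 9.20 in U87MG cells, a log2 difference of -2.87. MMP3, or stromelysin 1, differed by -3.48, while TIMP2, an inhibitor that also takes part in the activation of MMP2, was higher by 1.58. The probes of TIMP2 gave 2.19, 2.41 and 0.14, the last at background in both lines. Of 14 ADAM and ADAMTS proteases, 3 were higher and 7 lower, 71.4% called. ADAM19 was at 12.12, 12.20 and 12.31 against 8.57, 8.60 and 8.56 (3.64), and ADAM8, a sheddase of leukocytes, was lower in U373 cells by at least 12.3-fold.

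Of 13 cysteine cathepsins and cystatins, 6 were higher and 6 lower in U373 cells, 92.3% called beside 57.5% over all genes. CTSZ and CTSH were at background in U87MG cells and at least 9.53-fold and 6.83-fold higher. CTSK, the collagen-degrading cathepsin of osteoclasts, was at 5.79, 4.87 and 5.13 in U373 cells and at 9.88, 10.38 and 9.92 in U87MG cells, a difference of -4.80 (standard error 0.21). CTSV was at least 2.33-fold lower. Plasminogen activation, tissue factor and serpins comprised 23 tested genes, of which 10 were higher and 12 lower, 95.65% called. SERPINA3, an inhibitor of chymotrypsin-like proteases, was at 8.74, 9.98 and 9.84 in U373 cells and at background in U87MG cells, at least 28.9-fold higher. A2M, a broad protease trap, was at least 9.10-fold higher, and SERPINB7 differed by -5.53.

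Of 9 tested genes that the study names, its candidates and SPP1 among them, 7 were lower in U373 cells and none higher. This is 77.8% called, beside 57.5% over all genes. The study chose its candidates with the U373 monoculture arrays of this series among its data, and with U87MG arrays of other series. By RT-qPCR it reported CD74 and PI3 as overexpressed in U87MG cells only. The share is therefore a description of a list that was not chosen apart from these lines. PI3, an elastase inhibitor, was at 9.52, 11.04 and 10.59 in U87MG cells and at least 42.4-fold lower in U373 cells. CSTB, an inhibitor of cathepsins, was at 11.55, 11.75 and 11.79 against 13.53, 13.30 and 13.66, a log2 difference of -1.80. CPE, a carboxypeptidase that processes prohormones, differed by -1.51 and SPP1, the matrix protein osteopontin, by -1.04 (-0.61 without U373 co-culture replicate 1). ERAP2, which trims peptides for class I molecules, differed by -0.40 and no longer passed by its brightest probe (-0.037, adjusted p = 0.867) or without U87MG co-culture replicate 1 (-0.34, adjusted p = 0.0827) or U373 co-culture replicate 3 (-0.39, adjusted p = 0.05).

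TFRC, the transferrin receptor, was at 12.17, 12.28 and 12.11 in U373 cells and at 12.29, 12 and 12 in U87MG cells. The lines overlapped (log2 difference 0.09, standard error 0.13, adjusted p = 0.583). ADGRG1, the adhesion receptor also called GPR56, had a difference of -0.32 (standard error 0.15, adjusted p = 0.0756). This mean includes a probe at background in both lines, while the other probes gave -0.52 and -0.48. ADGRG1 passed by the probes above background (-0.50, adjusted p = 0.00646) and by its brightest probe (-0.48, adjusted p = 0.00842). It also passed without U373 co-culture replicate 1 (-0.41, adjusted p = 0.043).

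Glial and developmental genes differed as well. Of 17 tested astrocyte genes, 10 were higher and 2 lower in U373 cells, 70.6% called beside 57.5% over all genes. All 12 passed in monoculture too. GFAP, the intermediate filament of astrocytes, was at 9.72, 8.49 and 8.96 in U373 cells and at 4.35, 3.70 and 4.06, all background, in U87MG cells, at least 21.0-fold higher. FABP7, the fatty acid binding protein of radial glia, was at 10.97, 11.12 and 11.42 against 4.96, 5.29 and 5.07, a difference of 6.07. Lower were ALDOC, the brain aldolase (-5.17), and GJA1, the gap junction protein connexin 43 (-1.32). Other astrocyte markers, among them S100B, AQP4 and ALDH1L1, were at background in these cultures.

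Of 24 neural stem and proneural factors, 15 were higher and 4 lower in U373 cells, 79.2% called beside 57.5% over all genes. The same 19 passed in monoculture. SOX2, a factor of neural stem cells, was at 9.91, 9.03 and 10.29 in U373 cells and at 4.20, 3.44 and 3.82 in U87MG cells, at least 33.8-fold higher. OLIG2, a factor of the oligodendrocyte lineage, was at 3.15, 3.14 and 3.11 in U373 cells and at 6.57, 6.97 and 7.21 in U87MG cells, at least 3.83-fold lower. Of 19 HOX genes, which set position along the body axis, 7 were higher and 6 lower, 68.4% called. Without U373 co-culture replicate 2, 4 were lower. HOXB7 was higher by 3.78, whereas HOXB2 of the same cluster was at least 13.6-fold lower.

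Of 18 contractile genes of smooth muscle, 11 were higher and 3 lower in U373 cells, 77.8% called beside 57.5% over all genes. All of these passed in monoculture as well. ACTA2, smooth muscle actin, was at 13.25, 13.80 and 13.77 in U373 cells and at 9.83, 9.54 and 9.30 in U87MG cells, a log2 difference of 4.05. TAGLN, which binds actin, differed by 4.97, with probes that gave 6.80, 6.82 and 1.29. MYH10, a nonmuscle myosin, differed by 4.83. MYL9, a myosin light chain, was at background in U373 cells (at least 6.96-fold lower). ACTA2 and ACTG2 encode near-identical proteins, and binding of a probe for one to RNA of the other was not tested. ACTB and ACTG1, the actins of all cells, overlapped between the lines (log2 differences 0.30 and 0.18).

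Markers of other cell types were few. Of 10 neuron markers with a probe, 2 were above background on each U373 and 3 on each U87MG co-culture array. GAD1, which makes GABA, and SNAP25, a SNARE protein of synapses, were lower in U373 cells (at least 4.60-fold, and by -3.03). Of 11 microglia and leukocyte markers, 2 or 3 were above background on each array. The 3 tested were CD68, a lysosomal protein (-3.44), CSF1R (-0.65) and CD14, a receptor of bacterial lipopolysaccharide, which was higher in U373 cells (1.03). Of 8 endothelial markers 1 to 3 were above background, of 8 epithelial markers 2, and of 7 oligodendrocyte markers 1 or 2.

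**Figure D5:**
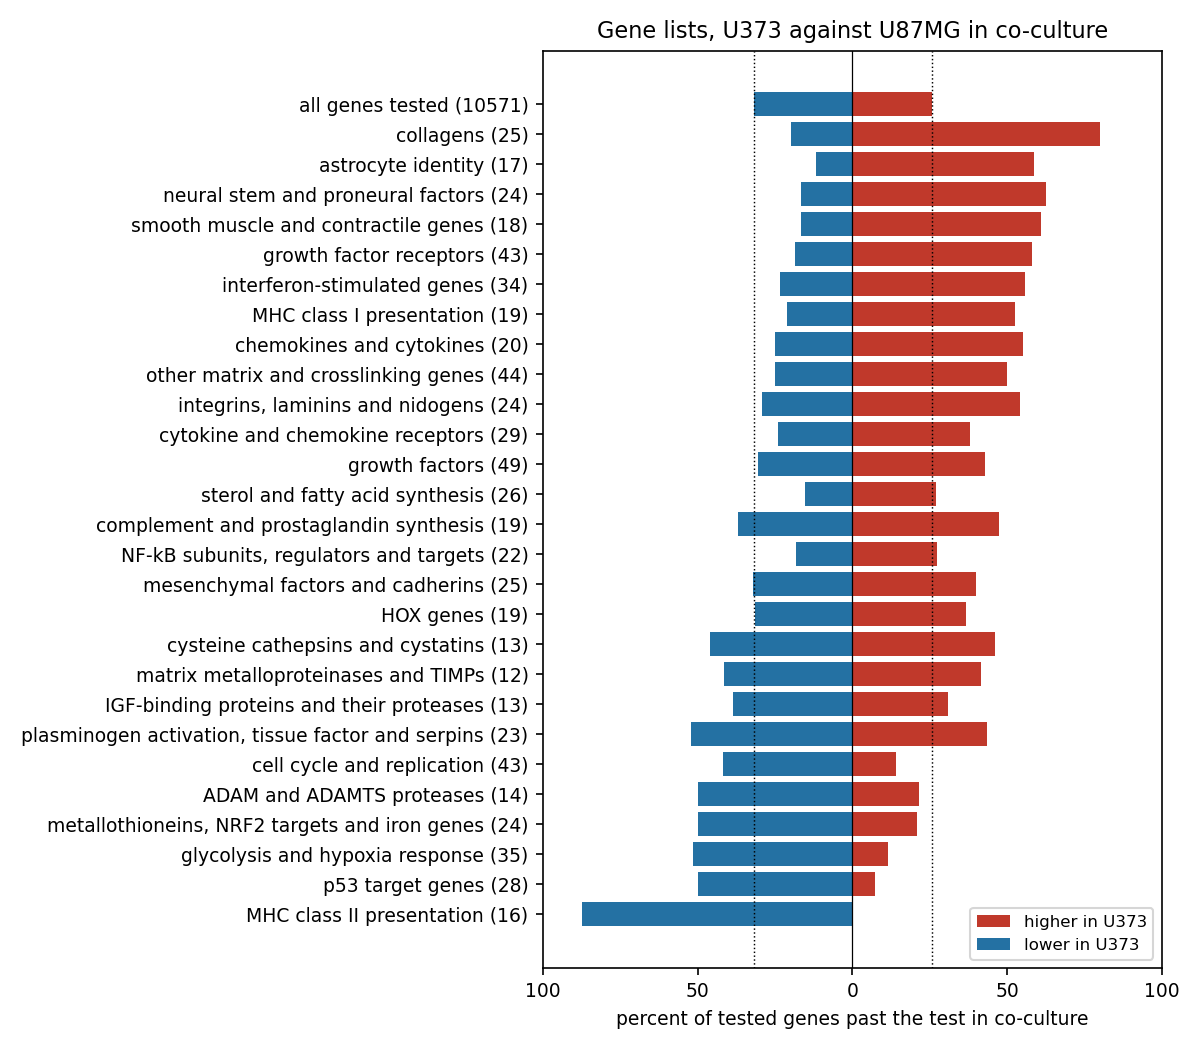
Percent of the tested genes of each list that passed the test in co-culture, higher in U373 to the right and lower in U373 to the left, with the number tested in brackets and dotted lines at the shares over all genes (25.6% and 31.9%). Collagens extend furthest toward U373 and class II presentation furthest toward U87MG, where 14 of 16 genes were lower and none higher.

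Of 35 glycolysis and hypoxia genes, 4 were higher and 18 lower in U373 cells, 62.9% called beside 57.5% over all genes. Without U87MG co-culture replicate 1 or without U373 co-culture replicate 1, 12 were lower. The list had a median log2 difference of -0.39, beside -0.07 over all genes. LDHA, the lactate dehydrogenase that makes lactate from pyruvate, was at 8.78, 9.01 and 9.40 in U373 cells and at 14.05, 13.69 and 14.16 in U87MG cells. Its log2 difference was -4.91 by 1 probe, in both cultures. CA12, a carbonic anhydrase of the cell surface, differed by -4.11. SLC2A1, the glucose transporter GLUT1, went the other way, at 11.50, 11.63 and 11.27 against 10.93, 10.61 and 10.56 (0.77), as did PFKFB3 (0.67) and GPI (0.62), both of glycolysis.

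Of 28 tested target genes of p53, 2 were higher (4 without U373 co-culture replicate 1) and 14 lower in U373 cells, all 16 in monoculture too. The share called, 57.1%, was near that over all genes, and the median was -0.46. SPATA18, which acts on mitochondria, was at 3.75, 3.78 and 3.33 in U373 cells and at 7.01, 7.21 and 7.08 in U87MG cells, at least 4.35-fold lower. TIGAR, a phosphatase of sugar phosphates, differed by -1.75, and CDKN1A, the cell cycle inhibitor p21, was at 7.01, 6.88 and 6.73 against 8.13, 7.56 and 7.63 (-0.90). The 2 higher genes were the kinase PLK2 (at least 5.24-fold) and SUSD6 (1.23). GDF15, a stress cytokine, was at 9.27, 13.01 and 10.86 in U373 cells, a wide spread in which replicate 2 was again the highest, and did not pass (1.31, adjusted p = 0.0684). It passed without U373 co-culture replicate 1 (2.20, adjusted p = 0.000331) and with the replicate number as a block (adjusted p = 0.0458).

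Of 43 cell cycle and replication genes, 6 were higher and 18 lower in U373 cells. Together 55.8% of the list was called, near the 57.5% over all genes. CDK6, a kinase of the G1 phase, was at 10.53, 10.32 and 9.81 in U373 cells and at 7.45, 7.55 and 7.05 in U87MG cells (2.87), whereas CCND2, a cyclin that binds it, was at background in U373 cells (at least 4.91-fold lower). MCM5, of the replication helicase, and the mitotic kinase PLK1 differed by -1.57 and -1.26. In sterol and fatty acid synthesis 7 of 26 genes were higher and 4 lower, so that 42.3% were called, below the share over all genes. ELOVL5 and FADS2, which elongate and desaturate fatty acids, were higher by 2.09 and 2.08, and INSIG1, which restrains sterol synthesis, differed by -1.57.

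Of 24 metallothioneins, targets of NRF2 and iron genes, 5 were higher and 12 lower in U373 cells, 70.8% called beside 57.5% over all genes. The metallothioneins MT1G and MT1M, which bind zinc and copper, differed by -4.19 and were at least 3.75-fold lower, respectively. HMOX1 differed by -3.05, and by -3.92 without U373 co-culture replicate 2. In prostaglandin and complement genes, 9 of 19 were higher and 7 lower, 84.2% called. PTGS2, the cyclooxygenase of inflammation, did not exceed background in U373 cells, while it was at 7.14, 8.89 and 7.43 in U87MG cells, at least 7.17-fold lower, and PTGES, the next enzyme toward prostaglandin E2, differed by -4.43. TBXAS1, the thromboxane synthase, was at least 6.25-fold higher in U373 cells. CD55, which protects cells from complement, was at least 7.17-fold lower, and CFI, a protease of complement, at least 3.74-fold higher.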

How the data were processed

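RNA of U373 and U87MG cells, in monoculture or indirect co-culture, was hybridized to 12 Illumina HumanWG-6 v3 arrays, 3 biological replicates per group. The deposited values are natural log intensities that the authors read with BeadStudio and normalized by variance stabilization. Their base was checked against the deposited non-normalized signal intensity: the slope was 0.9943 to 0.9976. These non-normalized columns, 24 in all, carry no sample name and were used for nothing else. Values were turned into log2. Of 48803 probes, 27578 matched 1 gene symbol and were averaged by gene, while the 13 with several symbols and the 21212 with none were left out. The background limit of an array was the mode of its values plus 3 SD, the SD taken from the values under the mode. Genes above it on at least 3 of the 12 arrays were tested with limma 3.58.1 in R 4.3.3, in 1 model of 4 group means with 14.9 degrees of freedom and Benjamini-Hochberg adjustment over 10571 genes, and called at adjusted p under 0.05. The fit was tested on simulated data. The study's rank product was not run, since it permutes ranks over genes.

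Replicate numbers are shared by the groups, although no source names a shared day. Deviations of same-numbered arrays of the 2 lines correlated at 0.168, 0.154 and 0.132 in co-culture and at 0.124, 0.115 and 0.207 in monoculture, and the fit with the number as a block is an alternative.

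The rule for named genes took the 15 largest differences in each direction, the 3 largest of each list in each direction, the genes the study names, genes past the test of the difference between cultures, the 10 brightest genes that did not pass, and partners of ligands and receptors. Other genes were named after their values were seen. The comparison and the lists were chosen with earlier results of these data known. Promoters are from RefSeq. Alternatives were other filters, normalizations, probe rules and variance models, each comparison on its own arrays, and leaving out each array.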

Additional observations from a re-analysis of the deposited data

Results flagged for a closer look

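The difference between the lines in CXCL8 was itself different between the cultures. The log2 difference, U373 minus U87MG, was 4.07 higher in co-culture than in monoculture, the 1 call among 10571 genes tested for this. All 3 U373 arrays lay above the 3 U87MG arrays in co-culture, and all 3 lay below them in monoculture. The adjusted p was 0.0365 and did not pass without 1 of several single arrays.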

How the results depend on the processing

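The count of genes different in co-culture was 5410 to 6174 when 1 array was left out and 5485 to 6303 under the other alternatives, and the count that passed in both cultures was 4856 to 5070 and 4767 to 5523. Of 3787 values of 165 named genes under 23 alternatives, 3757 kept their direction and side of the threshold, 20 no longer passed, 7 newly passed and 3 changed sign. The count of genes whose line difference changed between the cultures, 1 as reported, was 0 without the filter on dim genes, 0 with a trended and robust variance, and 0 to 2 when 1 array was left out, and the cause was not tested. With the replicate number as a block, 6239 genes differed in co-culture, 5418 passed in both cultures and 2 changed between them; the 2 were CXCL8 and CCL2 (adjusted p = 0.0249), and of the named genes' differences in co-culture the block changed the call of GDF15 only. The 3 changes of sign were in genes that did not pass: RFXANK, at -0.035 without U87MG co-culture replicate 3 in a range of -0.035 to 0.13 over single arrays left out, and TNFAIP3, at -0.15 and -0.21 without U373 co-culture replicate 2 and U87MG co-culture replicate 1, in a range of -0.21 to 0.46. ACTB passed after a further quantile normalization (0.31). A background correction and normalization from the raw signals (neqc) was not run, since their columns name no sample. With 3 arrays per group, and a scale that flattens toward background, small differences of dim genes were not detectable.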
